A study of Homo sapiens with 12 samples.

Results

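The genes described here are 41 genes of the DNA replication machinery: the factors that license origins, the MCM2-7 helicase and its activators, the replicative polymerases, the sliding clamp with its loader, the single-strand binding protein RPA and 2 enzymes that finish the lagging strand. They were taken by gene symbol from the deposited count table. All 41 of the 41 symbols were found among its 53717 genes, and all 41 passed the filter on low counts that left 17264 genes for testing. Poly(A) RNA was sequenced from H9, an established line of human embryonic stem cells and the only line used, grown in RSeT, a medium for naive-type culture. The 3 groups differed in the oligonucleotide, which carried fluorescein and was used at 25 nM: ASO-L1 is antisense to the retrotransposon LINE1, sO-L1 is a sense LINE1 oligo, and ASO-Ctr is an antisense oligo without a specific target. In all groups the oligo was delivered by lipofection together with 0.7 uM trans-ISRIB, an inhibitor of the integrated stress response, 5 uM of the caspase inhibitor emricasan and 10 uM of the ROCK inhibitor Y-27632, which were removed after 24 h, and cells positive for the dye were collected by flow sorting at 48 h. Each group had 4 libraries, numbered 1 to 4. Whether ASO-L1 lowered LINE1 RNA was not analysed here, and no label names the culture behind a replicate. The p-values of the main test therefore measure only the spread left between these samples once differences between replicate numbers are removed. This spread may be technical.

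DNA replication starts at origins that are marked in G1 by the origin recognition complex, ORC1 to ORC6. CDC6 and CDT1 load the MCM2-7 ring there, and geminin (GMNN) blocks CDT1 once S phase has begun. The ring becomes the CMG helicase when CDC45 and the GINS complex join it, and MCM10 helps to make the assembled helicase active. Polymerase alpha-primase then lays down primers, which polymerases delta and epsilon extend while held by PCNA, the clamp that the RFC complex loads. RPA covers single-stranded DNA, and FEN1 and LIG1 trim flaps and seal nicks. Many genes of this machinery are textbook targets of E2F transcription factors at the start of S phase, and pluripotent stem cells are known for a short G1 and for high levels of licensing factors.

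Because the members are known for shared control by E2F, their promoters were read from RefSeq (GRCh38.p14) as the 250 bases before the annotated start. The table held 35 of the 41 members, and MCM4, MCM5, GINS4, POLD3, RPA2 and RPA3 were not among them. Printed here are the 2 members that fell with the smallest adjusted p in ASO-L1 against ASO-Ctr, POLA2 and GINS2, and the 2 that rose with the smallest adjusted p, MCM10 and ORC3. Each run is written 5′ to 3′ on the gene's strand, and capitals mark E2F-type words and CCAAT boxes. POLA2 is at chr11:65261712-65261961 on the plus strand, GINS2 at chr16:85688955-85689204 on the minus strand, MCM10 at chr10:13161308-13161557 on the plus strand and ORC3 at chr6:87589885-87590134 on the plus strand.
POLA2: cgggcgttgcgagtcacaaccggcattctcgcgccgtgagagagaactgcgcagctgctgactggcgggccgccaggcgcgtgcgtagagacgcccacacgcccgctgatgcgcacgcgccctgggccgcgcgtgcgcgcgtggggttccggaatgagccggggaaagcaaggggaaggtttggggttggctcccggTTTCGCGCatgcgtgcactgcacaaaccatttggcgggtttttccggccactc
GINS2: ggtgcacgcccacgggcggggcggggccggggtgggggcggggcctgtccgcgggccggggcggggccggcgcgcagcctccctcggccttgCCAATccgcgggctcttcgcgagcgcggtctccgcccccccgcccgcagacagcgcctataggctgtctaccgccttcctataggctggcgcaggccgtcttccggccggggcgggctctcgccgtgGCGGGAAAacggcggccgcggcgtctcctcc
MCM10: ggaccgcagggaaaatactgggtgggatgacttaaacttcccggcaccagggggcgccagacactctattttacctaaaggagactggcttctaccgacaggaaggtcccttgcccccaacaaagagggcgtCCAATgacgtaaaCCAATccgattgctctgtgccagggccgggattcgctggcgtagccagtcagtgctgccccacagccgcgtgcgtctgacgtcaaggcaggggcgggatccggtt
ORC3: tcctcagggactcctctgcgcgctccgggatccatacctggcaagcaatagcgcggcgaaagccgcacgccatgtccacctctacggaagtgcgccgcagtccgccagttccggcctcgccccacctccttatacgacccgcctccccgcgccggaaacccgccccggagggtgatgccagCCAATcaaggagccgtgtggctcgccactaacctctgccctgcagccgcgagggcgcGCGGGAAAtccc
The E2F-type words searched were TTTCCCGC, TTTGGCGC, TTTCGCGC and TTTGCCGC on either strand, and none of them contains CCAAT. POLA2, which fell most, had 1 such word 53 bases before the start and no CCAAT. GINS2 had 1 word, read on the other strand as GCGGGAAA, and 1 CCAAT box, and ORC3, which rose, held the same letters and also 1 CCAAT box. MCM10 had 0 E2F-type words and 2 CCAAT boxes. Over the members, 12 of 35 promoters (34.3%) held an E2F-type word, against 457 of 10856 promoters of tested genes (4.21%). The word was present in 6 of 13 promoters of members that fell in ASO-L1 against ASO-Ctr and in 6 of the other 22. CCAAT was present in 20 of 35 members (57.1%) and in 34.5% of all these promoters. The cell cycle element TTTGAA was present in 0 of 35 members and in 8.32% of all. The median GC content was 64.8% in both. These matches describe letters in a window and do not show a bound site.

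The 12 libraries held 22830894 to 55056032 counted reads each, and 3 reads, the upper limit that a count of 0 allows, equalled 0.0545 to 0.131 CPM (edgeR CPM, the reads of a gene relative to the TMM-scaled depth of its library). This limit covers counting error only, and the lowest value of any member was 13.4 CPM (POLA2). The 41 members took 0.563 ± 0.0133% of the reads in ASO-Ctr, 0.555 ± 0.0109% in sO-L1 and 0.535 ± 0.0312% in ASO-L1 (SD, n = 4 each). ASO-L1 replicate 1 stood apart: its members took 0.495% of the reads, against 0.531 to 0.5796% in the other 11 libraries, and it held the lowest value of all 12 libraries for 27 of the 41 members. Counts are therefore also given without this library. How many of all tested genes had their lowest value in this library was not measured, so the 27 are not shown to be a trait of the members. The marker calls that follow stand beside the shares of all tested genes in ASO-L1. Of these, 21.2% rose and 23.1% fell against ASO-Ctr, and 21.1% rose and 22.9% fell against sO-L1. Core pluripotency markers (6 of 6 tested) summed to 5046 to 5413 CPM across the libraries, and in ASO-L1 1 rose and 2 fell against each control. The primed list (5 genes, 4 of them in the table) summed to 144 to 179 CPM in ASO-Ctr, 123 to 154 in sO-L1 and 209.6 to 239 in ASO-L1, and these 4 rose in ASO-L1 against both controls. The naive list (6 genes) summed to 70.4 to 89.9, 77.4 to 102 and 106 to 142 CPM in the same order, and of the 5 tested 4 rose and 1 fell against each control. The fibroblast list (6 genes, LUM at 0 in every library and 4 under 1 CPM, 1 of 3 tested lower against each control) summed to 63.1 to 86.4, 59.0 to 84.6 and 44.4 to 58.5 CPM. The part of these shifts in the results below was not tested.

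In ASO-L1 against ASO-Ctr, the non-targeting control, 15 of the 41 members fell and 3 rose, and 23 were not called (edgeR quasi-likelihood test with replicate number as a block, Benjamini-Hochberg adjusted p under 0.05 over 17264 genes). Those that fell were CDC6, MCM2, MCM6, GINS1, GINS2, POLA1, POLA2, PRIM1, PRIM2, POLD1, POLD3, PCNA, RFC1, RPA2 and LIG1, and those that rose were ORC3, ORC6 and MCM10. Much of the transcriptome differed, with 44.3% of all tested genes called, so the 43.9% of members called is near the background. By direction, 36.6% of members fell and 7.32% rose, against 23.1% and 21.2% of all tested genes. The median log2 fold change of the members was -0.07, and that of all genes tested was near 0, at -0.0028, with quartiles of -0.25 and 0.22. The groups did not overlap for 8 members that were lower and 1 that was higher, where 17.0% and 16.3% of all tested genes did so. In bulk RNA, a smaller share of cells in S phase and less RNA of these genes per cell cannot be told apart.

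Against the sense oligo sO-L1, 14 members fell and 4 rose, where 44.0% of all tested genes were called, 22.9% lower and 21.1% higher. The median of the members was -0.03. The groups did not overlap for 7 members that were lower and 1 that was higher, where 16.2% and 16.0% of all tested genes did so. The comparisons of ASO-L1 with each control share the ASO-L1 libraries and are not independent of each other. Lower against both controls were 11 members (CDC6, MCM6, GINS1, GINS2, POLA1, POLA2, PRIM2, POLD1, POLD3, PCNA and RFC1), where 19.4% of all tested genes met the same rule, and higher against both were ORC6 and MCM10, where 17.7% did. MCM2, PRIM1, RPA2 and LIG1 were called lower against ASO-Ctr alone, ORC5, GMNN and RPA1 lower against sO-L1 alone, ORC3 higher against ASO-Ctr alone and MCM3 and MCM4 higher against sO-L1 alone. A call against 1 control and not the other does not show that the controls differ. Without ASO-L1 replicate 1, 15 members were lower and 3 higher against ASO-Ctr, and 11 were lower and 5 higher against sO-L1. These were not all the same members. Against ASO-Ctr, POLE (log2 -0.11, adjusted p = 0.0385) was gained as lower and MCM3 (0.10, adjusted p = 0.0127) as higher. MCM2 and ORC6 were lost there. Against sO-L1, ORC3 (0.11, adjusted p = 0.0353) and RFC2 (0.11, adjusted p = 0.0367) were gained as higher. ORC5, ORC6, GMNN and RPA1 were lost there.

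The 2 control oligos were compared with each other. In sO-L1 against ASO-Ctr 0 of 41 members were called by edgeR, where 0.290% of all tested genes (50 of 17264) were. DESeq2 and limma also called 0 members, and 1 member, CDT1, had an unadjusted p under 0.05. The log2 fold changes ran from -0.11 (CDT1) to 0.08 (POLE2), with a median of -0.02. Groups did not overlap for 1 lower member, POLD1, and for 0 higher members, where 1.99% and 1.24% of all tested genes did so. POLD1 was at 89.8 to 94.4 CPM in ASO-Ctr and 85.96 to 89.1 CPM in sO-L1, and its log2 fold change of -0.07 ± 0.05 (SE) was not called (adjusted p = 0.887).

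**Figure D1:**
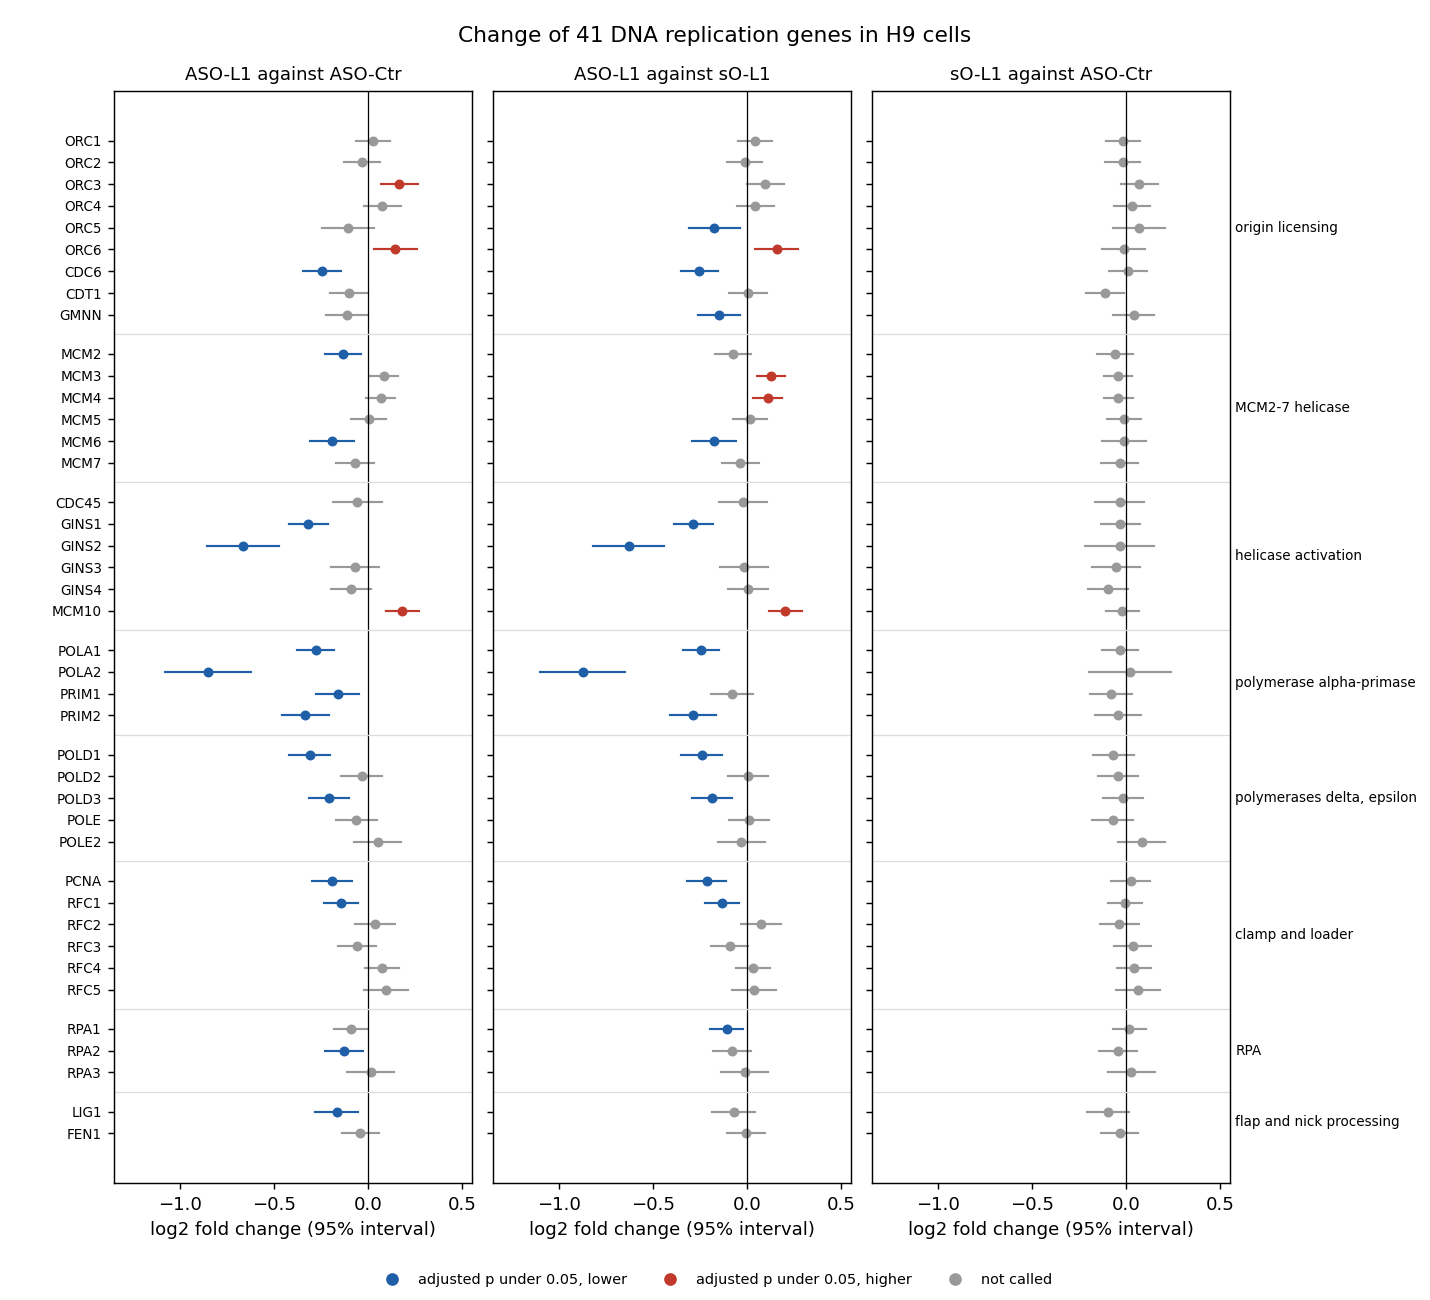
Log2 fold change of each of the 41 genes with its 95% interval, for ASO-L1 against ASO-Ctr, ASO-L1 against sO-L1 and sO-L1 against ASO-Ctr, with genes grouped by role. Blue points passed the test as lower (15, 14 and 0 genes) and red points as higher (3, 4 and 0 genes), and POLA2 and GINS2 lie farthest to the left in both comparisons of ASO-L1.

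The counts by role that follow stand beside these shares of all tested genes. Against ASO-Ctr 23.1% were lower and 21.2% higher, and against sO-L1 22.9% and 21.1%. Origin licensing genes went in different directions. Against ASO-Ctr, 1 of 9 fell (CDC6) and 2 rose (ORC3 and ORC6), and against sO-L1, 3 fell (CDC6, ORC5 and GMNN) and 1 rose (ORC6). CDC6, the ATPase that brings MCM2-7 to ORC, was at 127.2, 130.4, 136.9 and 142.6 CPM in ASO-Ctr replicates 1 to 4, at 132.4, 124.9, 139.4 and 143.2 CPM in sO-L1 and at 97.6, 111.4, 119.7 and 124.6 CPM in ASO-L1. All 4 ASO-L1 libraries lay below all 8 control libraries. CDC6 fell 1.19-fold against each control, with log2 fold changes of -0.25 ± 0.05 (adjusted p = 0.000489) and -0.25 ± 0.05 (SE, adjusted p = 0.000376).

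CDT1, the loading factor that works with CDC6, was at 80.6, 74.5, 74.0 and 80.4 CPM in ASO-Ctr, 69.1, 69.7, 74.2 and 73.4 CPM in sO-L1 and 69.2, 69.1, 73.9 and 75.4 CPM in ASO-L1. The ranges of all 3 groups overlap. The log2 fold change of CDT1 was -0.11 ± 0.05 against ASO-Ctr (adjusted p = 0.0836) and 0.01 ± 0.05 against sO-L1 (SE, adjusted p = 0.935), and no comparison called it.

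GMNN, whose protein holds CDT1 inactive, was at 99.7, 93.9, 102.4 and 106.0 CPM in ASO-Ctr, 104.0, 98.2, 102.8 and 107.2 CPM in sO-L1 and 80.3, 90.8, 98.3 and 102.7 CPM in ASO-L1. Replicates 1 and 2 of ASO-L1 lay below both controls, and the other two overlapped them. GMNN fell against sO-L1 (log2 -0.15 ± 0.05, SE, adjusted p = 0.0275), and against ASO-Ctr it missed the threshold (-0.11 ± 0.05, adjusted p = 0.0935). Without the block the adjusted p against sO-L1 was 0.109. The call was lost in 7 of 16 refits that left out a library or a replicate number (sO-L1 replicates 1 and 2, ASO-L1 replicate 1, ASO-Ctr replicate 3 and numbers 1, 2 and 3, adjusted p 0.0520 to 0.127), and the log2 fold change was -0.08 without ASO-L1 replicate 1 and also without number 1.

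Of the ORC subunits, ORC3 rose against ASO-Ctr by a log2 fold change of 0.17 ± 0.05 (SE, adjusted p = 0.00908), higher in 4 of 4 replicate numbers, and without ASO-L1 replicate 2 its adjusted p was 0.0526. ORC6 rose by 0.14 ± 0.05 (adjusted p = 0.0412) and by 0.16 ± 0.05 against sO-L1 (SE, adjusted p = 0.0274), both close to the threshold. Without ASO-L1 replicate 1 these values were 0.09 and 0.10, and without number 1 the value against sO-L1 was 0.09. Against ASO-Ctr the ORC6 call was lost in 9 of 16 refits (ASO-Ctr replicates 1, 2 and 3, sO-L1 replicate 2, ASO-L1 replicates 1 and 3 and numbers 1, 2 and 3, adjusted p 0.0543 to 0.209). Against sO-L1 it was lost in 5 (sO-L1 replicate 1, ASO-L1 replicates 1 and 3 and numbers 1 and 3, adjusted p 0.0695 to 0.117), and without the block its adjusted p was 0.0900 and 0.0664. ORC5 fell against sO-L1 with a log2 fold change of -0.18 ± 0.06 (SE, adjusted p = 0.0358), a call lost in 11 of 16 refits (ASO-L1 and sO-L1 replicates 1, 2 and 3, ASO-Ctr replicates 3 and 4 and numbers 1, 2 and 3, adjusted p 0.0550 to 0.191) and without the block (0.142). Without sO-L1 replicate 1 the ORC5 value was -0.11, and without number 1 it was -0.09. ORC1, ORC2 and ORC4 were not called in any comparison, with log2 fold changes between -0.03 and 0.07 in ASO-L1.

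The 6 subunits of the MCM2-7 ring did not move together. MCM6 fell against both controls, MCM2 fell against ASO-Ctr, MCM3 and MCM4 rose against sO-L1, and MCM5 and MCM7 were not called. MCM6 was at 407.3, 384.8, 392.1 and 401.2 CPM in ASO-Ctr, 422.7, 363.9, 388.1 and 396.5 CPM in sO-L1 and 305.4, 340.0, 361.7 and 382.3 CPM in ASO-L1. Every ASO-L1 library lay below every ASO-Ctr library, and replicate 4 of ASO-L1 lay above replicate 2 of sO-L1. The log2 fold changes were -0.19 ± 0.06 (adjusted p = 0.00969) and -0.18 ± 0.06 (SE, adjusted p = 0.0151). Without ASO-L1 replicate 1 they were -0.11 and -0.09 and remained called (adjusted p = 0.0103 and 0.0240), without number 1 they were -0.11 and -0.08 (adjusted p = 0.00237 and 0.0303), without number 2 the adjusted p was 0.0602 and 0.0511, and without sO-L1 replicate 1 it was 0.0970 against sO-L1.

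MCM3, which sits next to MCM5 in the ring, was at 401.3 to 439.8 CPM in sO-L1 and 433.9 to 490.6 CPM in ASO-L1, and rose by a log2 fold change of 0.13 ± 0.04 (SE, adjusted p = 0.00958), higher in 4 of 4 replicate numbers. MCM4 rose by 0.11 ± 0.04 (SE, adjusted p = 0.0218), also higher in 4 of 4. Against ASO-Ctr they were at 0.08 and 0.07 and were not called. Some refits called MCM3 higher against ASO-Ctr. These were the refits without ASO-L1 replicate 1 (0.10, adjusted p = 0.0127), without ASO-Ctr replicate 1 and without number 1 (0.11, adjusted p = 0.00165). Limma on the authors' batch-corrected values (adjusted p = 0.0469), upper-quartile scaling and a minimum count of 50 also called it. MCM2 fell against ASO-Ctr with a log2 fold change of -0.13 ± 0.05 (SE, adjusted p = 0.0239). The calls of MCM3 and MCM4 against sO-L1 and of MCM2 against ASO-Ctr were fragile. MCM3 was lost in 3 of 16 refits (ASO-L1 replicates 2 and 4 and number 3, adjusted p 0.0525 to 0.0687) and MCM4 in 6 (ASO-L1 and sO-L1 replicates 2 and 3 and numbers 2 and 3, 0.0525 to 0.156). MCM2 was lost in 8 (ASO-Ctr replicates 1, 3 and 4, ASO-L1 replicates 1 and 3 and numbers 1, 2 and 3, 0.0511 to 0.0994), and its log2 fold change was -0.08 without ASO-L1 replicate 1 and -0.07 without number 1. Without the block the adjusted p was 0.0851 for MCM3, 0.164 for MCM4 and 0.177 for MCM2. The CPM of MCM6 over that of MCM3 was 0.910 ± 0.0390 in ASO-Ctr, 0.931 ± 0.0820 in sO-L1 and 0.752 ± 0.0331 in ASO-L1 (SD, n = 4 each), a pair chosen after the values were seen and given as a description.

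Among the activators of the helicase, 2 of the 4 GINS subunits fell against both controls, MCM10 rose against both, and CDC45, GINS3 and GINS4 were not called. GINS2 was at 57.7, 53.8, 61.6 and 64.3 CPM in ASO-Ctr, 58.5, 53.8, 61.3 and 57.02 CPM in sO-L1 and 27.2, 37.3, 38.1 and 47.3 CPM in ASO-L1. The groups did not overlap: the highest ASO-L1 library lay below the lowest library of each control. GINS2 fell 1.59-fold against ASO-Ctr (95% interval 1.39 to 1.81, adjusted p = 1.71e-05) and 1.55-fold against sO-L1 (1.36 to 1.77, adjusted p = 2.82e-05). Without ASO-L1 replicate 1 its log2 fold changes were -0.53 and -0.50, from -0.67 and -0.63.

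GINS1, its partner in the same ring of 4 proteins, fell, with log2 fold changes of -0.32 ± 0.05 (adjusted p = 6.11e-05) and -0.29 ± 0.05 (SE, adjusted p = 0.000163). Its ASO-L1 libraries, at 99.8 to 121.1 CPM, lay below all libraries of both controls, at 126.2 to 144.2 CPM. GINS3 and GINS4 had log2 fold changes of -0.07 and -0.09 against ASO-Ctr and of -0.02 and 0.00 against sO-L1. The CPM of GINS2 over that of GINS1 was 0.429 ± 0.0143 in ASO-Ctr, 0.426 ± 0.0170 in sO-L1 and 0.335 ± 0.0484 in ASO-L1 (SD, n = 4), again a description of a pair chosen after the values were seen.

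MCM10, which helps the assembled helicase to separate the strands, was at 86.9, 89.5, 91.1 and 95.6 CPM in ASO-Ctr, 87.8, 84.6, 91.0 and 94.7 CPM in sO-L1 and 98.4, 97.7, 104.4 and 111.4 CPM in ASO-L1. All ASO-L1 libraries lay above all control libraries. MCM10 rose by log2 fold changes of 0.18 ± 0.04 (adjusted p = 0.00219) and 0.20 ± 0.04 (SE, adjusted p = 0.000899), and it was the one member higher against both controls in all 16 leave-out refits, a rule that 10.9% of all tested genes met.

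**Figure D2:**
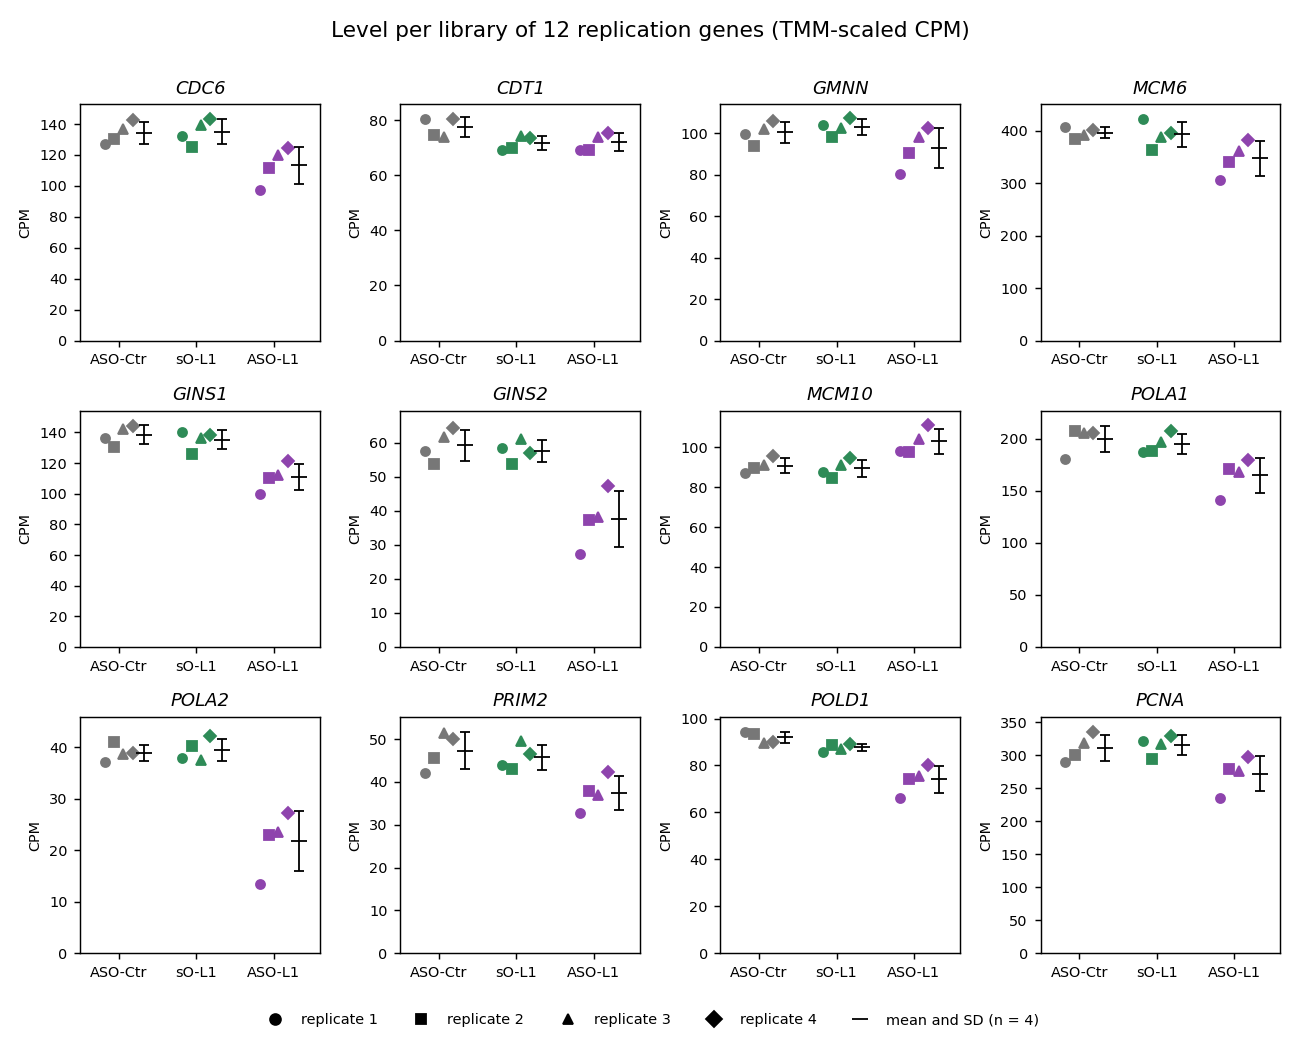
Level of 12 members in each library, in CPM on axes that start at 0, with symbols for the replicate number and the mean with SD (n = 4) beside each group. GINS2 and POLA2 show the largest relative gap between ASO-L1 and both controls, ASO-L1 replicate 1 is the lowest point for POLA2 at 13.4 CPM, and the 3 groups of CDT1 overlap.

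Polymerase alpha-primase, the enzyme that starts every Okazaki fragment, was the role in which all members fell in ASO-L1 against ASO-Ctr: POLA1, POLA2, PRIM1 and PRIM2, 4 of 4. Against sO-L1, 3 of the 4 fell and PRIM1 was not called. Of all tested genes 23.1% were lower against ASO-Ctr and 22.9% against sO-L1. POLA2, the B subunit that holds the catalytic chain, was at 37.2, 41.01, 38.6 and 38.8 CPM in ASO-Ctr, 37.9, 40.2, 37.5 and 42.2 CPM in sO-L1 and 13.4, 22.9, 23.5 and 27.2 CPM in ASO-L1. The control libraries lay within a narrow band, and all 4 ASO-L1 libraries lay well below it. POLA2 fell 1.81-fold against ASO-Ctr (95% interval 1.54 to 2.11, log2 -0.85 ± 0.11, adjusted p = 8.32e-06) and 1.83-fold against sO-L1 (1.57 to 2.14, log2 -0.87 ± 0.11, SE, adjusted p = 6.03e-06), more than any other member. Without ASO-L1 replicate 1 the log2 fold changes were -0.69 and -0.71.

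In the GENCODE v29 annotation 53.7% of the exonic bases of POLA2 are shared on the same strand with another gene, AP000944.2, so that part of its reads could have been left uncounted or counted elsewhere if the authors' annotation held that gene. That annotation is not named in the labels or file headers, and PRIM1 (26.0%) and POLD1 (12.1%) share exonic bases with same-strand genes in the same way.

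POLA1, the catalytic subunit, fell, with log2 fold changes of -0.28 ± 0.05 (adjusted p = 0.000101) and -0.25 ± 0.05 (SE, adjusted p = 0.000352), with groups that did not overlap in either comparison. PRIM2, the large primase subunit, fell with a log2 fold change of -0.33 ± 0.06 (adjusted p = 0.000232) and -0.29 ± 0.06 (SE, adjusted p = 0.000800), from 42.2 to 51.5 CPM in ASO-Ctr to 32.7 to 42.4 CPM in ASO-L1. PRIM1, which makes the RNA primer, fell with a log2 fold change of -0.16 ± 0.05 against ASO-Ctr (SE, adjusted p = 0.0212) and was at -0.08 ± 0.05 against sO-L1 (adjusted p = 0.238). The PRIM1 call was lost in 6 of 16 refits (ASO-Ctr replicates 2, 3 and 4 and the same replicate numbers, adjusted p 0.0506 to 0.0968), and without the block its adjusted p was 0.0521. The CPM of POLA2 over that of POLA1 was 0.195 ± 0.00825 in ASO-Ctr, 0.203 ± 0.00970 in sO-L1 and 0.130 ± 0.0245 in ASO-L1 (SD, n = 4), a description of a pair chosen after the values were seen.

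Of the 5 genes of polymerases delta and epsilon, the 2 that fell, POLD1 and POLD3, belong to delta, the polymerase of the lagging strand, and they fell against both controls. POLD1, the catalytic subunit, was at 94.4, 93.6, 89.8 and 90.1 CPM in ASO-Ctr, 85.96, 88.7, 86.9 and 89.1 CPM in sO-L1 and 66.3, 74.3, 75.5 and 80.3 CPM in ASO-L1. All ASO-L1 libraries lay below all control libraries. Its log2 fold changes were -0.31 ± 0.05 (adjusted p = 0.000121) and -0.24 ± 0.05 (SE, adjusted p = 0.00106). POLD3, an accessory subunit, fell with a log2 fold change of -0.21 ± 0.05 (adjusted p = 0.00306) and -0.19 ± 0.05 (SE, adjusted p = 0.00549), and without the block its adjusted p against sO-L1 was 0.0715. POLD2, POLE and POLE2 were not called in the full data, with log2 fold changes between -0.06 and 0.05 in ASO-L1 against either control.

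PCNA, the clamp, and RFC1, the large subunit of its loader, fell against both controls. RFC2, RFC3, RFC4 and RFC5 were not called in the full data (log2 between -0.09 and 0.10). PCNA was at 289.1, 300.9, 318.1 and 335.7 CPM in ASO-Ctr, 321.0, 293.6, 317.0 and 329.8 CPM in sO-L1 and 235.4, 279.9, 276.5 and 297.0 CPM in ASO-L1. Replicates 1 to 3 of ASO-L1 lay below all control libraries, and replicate 4 overlapped both controls. PCNA fell with a log2 fold change of -0.19 ± 0.05 (adjusted p = 0.00437) and -0.22 ± 0.05 (SE, adjusted p = 0.00196), lower in 4 of 4 replicate numbers each time, and against sO-L1 the log2 fold change without number 1 was -0.14 (adjusted p = 0.000539). RFC1 fell with a log2 fold change of -0.15 ± 0.04 (adjusted p = 0.0108) and -0.14 ± 0.04 (SE, adjusted p = 0.0152). The RFC1 call was lost without numbers 2 and 3 against ASO-Ctr (adjusted p 0.0569 to 0.0613) and without sO-L1 replicates 1 and 4 and numbers 3 and 4 against sO-L1 (0.0556 to 0.0720), and without the block its adjusted p was 0.0738 and 0.0907.

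The subunits of RPA and the maturation enzymes showed small changes. RPA2 was at 84.2, 85.1, 95.05 and 99.4 CPM in ASO-Ctr, 89.9, 81.2, 91.0 and 89.99 CPM in sO-L1 and 79.5, 82.0, 85.1 and 85.7 CPM in ASO-L1, so the groups overlap. RPA2 fell with a log2 fold change of -0.13 ± 0.05 against ASO-Ctr (SE, adjusted p = 0.0393), a call lost in 10 of 16 refits (replicates 3 and 4 of each group, ASO-Ctr replicate 2 and numbers 2, 3 and 4, adjusted p 0.0621 to 0.221) and with DESeq2 (0.0516) and without the block (0.117). RPA1, the subunit with the main DNA-binding domains, was at 209.7, 209.5, 218.6 and 219.6 CPM in ASO-Ctr, 211.7, 214.0, 216.3 and 223.7 CPM in sO-L1 and 181.9, 195.2, 209.0 and 217.6 CPM in ASO-L1. ASO-L1 replicates 1, 2 and 3 lay below all control libraries, replicate 3 only just, and replicate 4 overlapped them. RPA1 fell against sO-L1 with a log2 fold change of -0.11 ± 0.04 (SE, adjusted p = 0.0414), a call lost in 14 of 16 refits (all but those without ASO-Ctr replicate 1 and ASO-L1 replicate 4, adjusted p 0.0519 to 0.207), with DESeq2 (0.0626) and without the block (0.141). Without number 1 its log2 fold change was -0.07. RPA3 was not called, at log2 0.01 and -0.01.

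LIG1, which seals the nicks between Okazaki fragments, was at 70.0, 63.2, 68.2 and 66.4 CPM in ASO-Ctr, 61.0, 65.0, 61.2 and 62.8 CPM in sO-L1 and 54.9, 60.3, 59.9 and 62.8 CPM in ASO-L1. ASO-L1 lay below ASO-Ctr in every library and overlapped sO-L1. LIG1 fell against ASO-Ctr with a log2 fold change of -0.17 ± 0.05 (SE, adjusted p = 0.0166) and was at -0.07 ± 0.05 against sO-L1 (adjusted p = 0.289). The call was lost without ASO-Ctr replicates 1 and 3 and without numbers 1 and 3 (adjusted p 0.0636 to 0.0888), and without number 1 the log2 fold change was -0.10. FEN1, the flap nuclease, was not called in any comparison.

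Differences within a replicate number show how the members varied among themselves. ASO-L1 against ASO-Ctr was negative for 29, 29, 27 and 26 of the 41 members in numbers 1 to 4, with medians of -0.18, -0.07, -0.05 and -0.04. Against sO-L1 it was negative for 31, 25, 23 and 20 members, with medians of -0.18, -0.02, -0.03 and 0.0002. Number 1 gave the most negative difference for 26 and 33 of the 41 members. The same counts and medians were not made for all tested genes, so they do not show whether number 1 differs for the members in particular. POLA2 ranged from -1.47 in number 1 to -0.51 in number 4 against ASO-Ctr, and GINS2 from -1.08 to -0.44. CDC6, GINS1, GINS2, POLA1, POLA2, PRIM2, POLD1, POLD3 and PCNA were called lower against both controls in the full data and in all 16 leave-out refits, which is 22% of the members, where 12.3% of all tested genes met that rule.

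**Figure D3:**
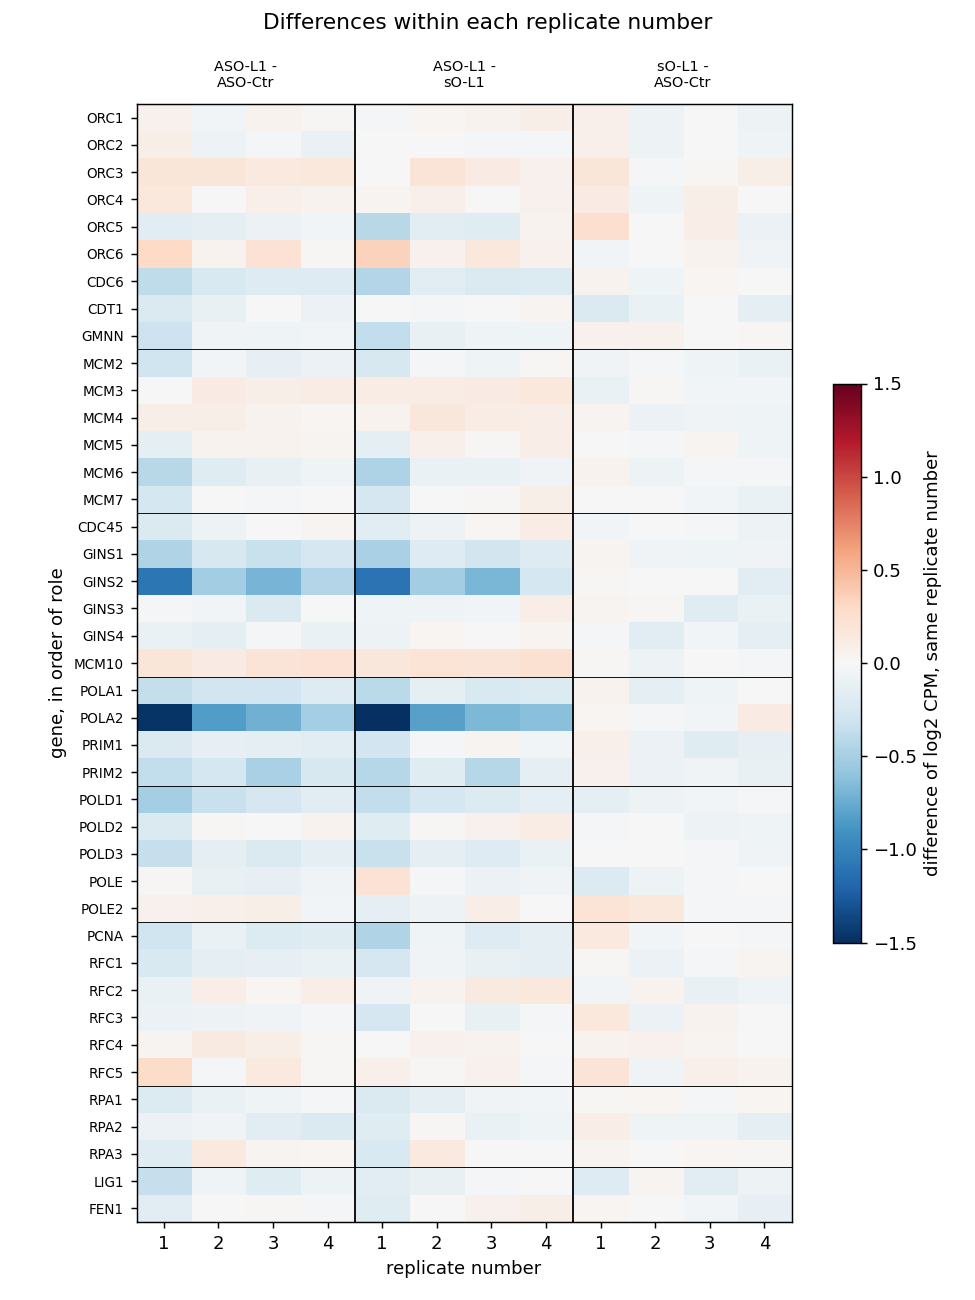
Difference of log2 CPM between libraries of the same replicate number, for the 41 members in order of role and the 3 comparisons. Blue is lower and red is higher: GINS2 and POLA2 are blue in all 4 numbers of both comparisons of ASO-L1, MCM10 is red in all of them, and in both comparisons of ASO-L1 number 1 has the most negative value for most members (26 and 33 of 41). In sO-L1 against ASO-Ctr this holds for 5 of 41. The share of all tested genes for which it holds was not measured.

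Levels of different members can be compared per length only. The length used is the union of exons of the basic GENCODE v29 transcripts, while the counts were made on hg19 with an annotation not named. How far the order of the members depends on this length was not tested. Divided by the exonic length in GENCODE v29, ASO-Ctr levels ran from 7.43 CPM per kb for GINS4 to 211 CPM per kb for PCNA, with a median of 31.3 over the members. MCM2-7 had the highest median of the roles, 109 CPM per kb, from 73.7 (MCM2) to 136 CPM per kb (MCM3), while the GINS subunits ran from 7.43 (GINS4) to 42.6 (GINS1) and polymerase alpha-primase from 10.4 (POLA2) to 48.0 CPM per kb (PRIM1). POLA2 was at 5.81 ± 1.57 CPM per kb in ASO-L1 (SD, n = 4). Its place among the members is uncertain, since 53.7% of the length it is divided by is shared with another gene, and so, to a lesser degree, are those of PRIM1 and POLD1. The 15 members that fell had a median exonic length of 3622 bases, against 2722.5 bases for the other 26. Duplicate reads had been removed before deposit, and how far this reduced the most abundant members was not measured here.

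**Figure D4:**
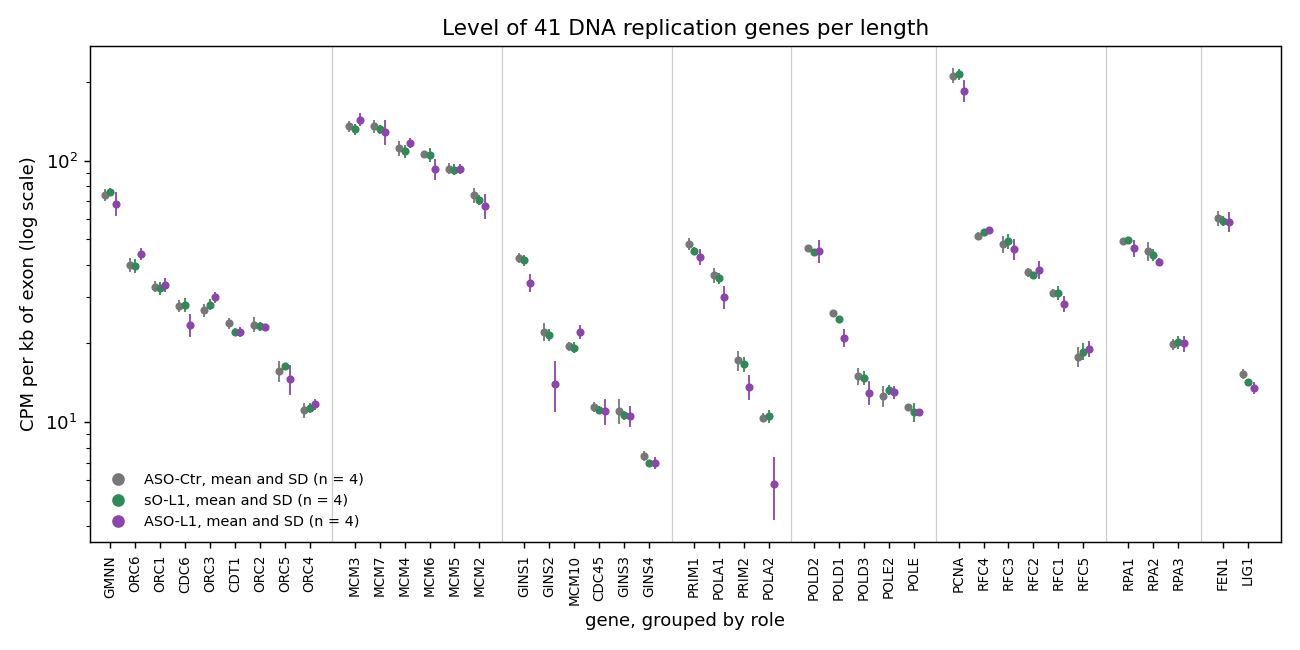
Mean level per kb of exon with SD (n = 4) in each group, on a log axis, with members ordered by their ASO-Ctr level within each role. PCNA is the highest gene in each group and the MCM2-7 genes follow, with GMNN among them at 73.9 CPM per kb in ASO-Ctr. POLA2 moves from 10.4 CPM per kb in ASO-Ctr to 5.81 in ASO-L1, values that rest on an exonic length partly shared with another gene.

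Genes that act beside the replication machinery were taken as lists, and all of the following values are for ASO-L1 against ASO-Ctr unless said otherwise. Of all tested genes 23.1% were lower and 21.2% higher against ASO-Ctr, and 22.9% and 21.1% against sO-L1. Of 9 factors that fire origins, 2 fell and 3 rose (median log2 0.03), and the same counts held against sO-L1 (median 0.05). CDC7, the catalytic subunit of the kinase that activates MCM2-7, fell with a log2 fold change of -0.56 ± 0.06 (adjusted p = 1.12e-06), and DBF4, its regulatory subunit, rose by 0.13 ± 0.05 (SE, adjusted p = 0.0402), a call lost in 7 of 16 refits (ASO-Ctr replicates 1, 2 and 4, ASO-L1 replicates 2 and 3 and numbers 2 and 3, highest adjusted p 0.177). TICRR (treslin) fell with a log2 fold change of -0.46 ± 0.05, while MTBP, the protein that treslin binds, rose by 0.33 ± 0.09 (0.21 without number 1) and LRWD1, an ORC-binding protein, rose by 0.35 ± 0.06. All 5 were also called in the same direction against sO-L1, where DBF4 was lost in 7 of 16 refits and MTBP without number 2 (adjusted p = 0.0616). Without the block the adjusted p of DBF4 was 0.116.

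Of 28 partners of the fork, 8 fell and 8 rose (median -0.01), and against sO-L1 7 fell and 7 rose (median -0.06). The nuclease DNA2 fell with a log2 fold change of -0.33 ± 0.05 and the fork protection factor TIMELESS with one of -0.28 ± 0.05 (SE), and MCMBP, which binds free MCM subunits, rose by 0.27 ± 0.05 and RNASEH2C by 0.32 ± 0.07. Of 10 genes of nucleotide supply, 3 fell and 2 rose (median -0.07), and against sO-L1 3 fell and 1 rose (median -0.01). RRM1 and RRM2, the subunits of ribonucleotide reductase, fell with a log2 fold change of -0.32 ± 0.05 and -0.24 ± 0.04, CTPS1 fell with a log2 fold change of -0.11 ± 0.04, RRM2B, the reductase subunit induced by p53, rose by 0.27 ± 0.06, and DTYMK rose by 0.13 ± 0.05 (SE). The CTPS1 call was lost in 11 of 16 refits (ASO-Ctr replicates 1 to 4, sO-L1 replicates 3 and 4, ASO-L1 replicates 2 and 3 and numbers 2, 3 and 4, highest adjusted p 0.196). The DTYMK call was lost in 10 (ASO-Ctr and ASO-L1 replicates 2, 3 and 4, sO-L1 replicate 2 and numbers 2, 3 and 4, highest adjusted p 0.138). Without the block the adjusted p was 0.0914 for RRM2, 0.0505 for RRM2B, 0.317 for CTPS1 and 0.117 for DTYMK.

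Of 25 genes of the E2F and RB circuit and the S-phase kinases, 11 fell and 3 rose (median -0.12), and against sO-L1 8 fell and 4 rose (median -0.05). RB1, the repressor of E2F, fell with a log2 fold change of -0.73 ± 0.06 (adjusted p = 1.24e-07), CDK6 fell with a log2 fold change of -0.42 ± 0.04 and CCNE1 (cyclin E1) with one of -0.21 ± 0.07 (SE, adjusted p = 0.0168). CCND2 rose by 0.72 ± 0.10, E2F4 by 0.19 ± 0.04 and CCNA2 by 0.15 ± 0.04. E2F1, the activator most often named for the replication genes, was at 41.5 CPM in ASO-Ctr and 41.1 CPM in ASO-L1 and was not called (adjusted p = 0.856), and CCNE2 was at 0.20 ± 0.12 (SE, adjusted p = 0.175). Against sO-L1 CCNE2 rose by 0.34 ± 0.12 (SE, adjusted p = 0.0259), a call lost in 4 of 16 refits (sO-L1 replicates 1 and 2, ASO-L1 replicate 2 and number 2, highest adjusted p 0.278) and without the block (0.224), and the value was 0.19 without number 2, 0.20 without sO-L1 replicate 2 and 0.23 without ASO-L1 replicate 2. The CCNE1 call was lost without ASO-Ctr replicates 1 and 2 and number 2, with a highest adjusted p of 0.0874, its value was -0.12 without ASO-L1 replicate 1 and -0.13 without number 1, and without the block the adjusted p was 0.0554 for CCNE1 and 0.0592 for CCNA2. Of the CDK inhibitors, 4 of 7 were tested, and 1 rose and 1 fell against each control. CDKN1A (p21), which also binds PCNA, rose 5.23-fold (95% interval 4.27 to 6.40, adjusted p = 4.32e-09), from a mean of 5.89 to 30.3 CPM, and CDKN1C fell with a log2 fold change of -0.38 ± 0.07 (SE).

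Of 20 genes of G2 and mitosis, 7 fell and 4 rose (median 0.01), and against sO-L1 5 fell and 4 rose (median 0.01). CENPE and KIF11 fell with a log2 fold change of -0.59 ± 0.06 and -0.41 ± 0.04 and MKI67, the proliferation marker, with one of -0.21 ± 0.04 (SE, adjusted p = 0.000485), and PLK1 rose by 0.25 ± 0.05, AURKA by 0.15 ± 0.04, CDC20 by 0.16 ± 0.04 and CENPA by 0.34 ± 0.08. Against sO-L1 MKI67 was at -0.07 (adjusted p = 0.170). The calls of AURKA, CDC20 and CCNA2 against ASO-Ctr were lost without number 3 (adjusted p 0.0803, 0.0717 and 0.0723). Of 17 genes of the replication checkpoint, 3 fell and 2 rose (median 0.05), and against sO-L1 3 fell and 3 rose (median 0.02). The kinases ATM and ATR fell with a log2 fold change of -0.59 ± 0.05 and -0.58 ± 0.07, FANCI fell with a log2 fold change of -0.18 ± 0.05, WEE1 rose by 0.43 ± 0.05, and HUS1 rose by 0.18 ± 0.07 (SE), a call lost in 9 of 16 refits (replicates 1, 2 and 3 of ASO-Ctr and ASO-L1 and numbers 1, 2 and 3, highest adjusted p 0.135) and without the block (0.0938). Without ASO-L1 replicate 1 the HUS1 value was 0.12.

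In the authors' deposited table of ASO-L1 against sO-L1, 12 members were lower and 4 higher at an adjusted p under 0.05, and all 12 and all 4 are among those called here. Of the 20856 genes in the authors' deposited table, 16.7% were lower and 16.1% higher. POLA2 stands in the authors' deposited table with a log2 fold change of -0.88 and an adjusted p of 6.10e-06. ORC5 and RPA1, at adjusted p = 0.0757 and 0.0569 in the authors' deposited table, are the 2 members called lower here and not there.

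Some counts may hold reads of near-identical copies or overlapping genes. Named pseudogenes exist in GENCODE v29 for PCNA (3), RPA2 (3), POLD2, RFC3, RFC5 and FEN1 (1 each), and 9 of these 10 have rows of their own in the count table. The library kit keeps strand, but the sources used here do not say whether the counting used it. Antisense genes cover 32.0% of the exonic bases of MCM2, 23.6% of GINS4 and 16.5% of GINS3. They cover 8.8% of PRIM1, 7.7% of ORC4, 7.6% of MCM7, 7.2% of FEN1 and 6.5% of RFC5. Smaller parts of LIG1, ORC2, RPA3, RFC4 and GINS2 are also covered. The levels of all these members are uncertain by as much as such reads contribute.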

How the data were processed

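Per the submitters' processing notes, the authors worked on hg19 with featureCounts (Subread 1.5.0), TopHat2 2.0.13 and Trim Galore 0.4.0. Per the labels, the deposited raw counts had duplicates removed. The authors also deposited batch-corrected log2 values and a comparison table with log2 fold changes, p-values and adjusted p-values. The deposited score columns of that table were not used. The gene annotation and the methods behind these tables are not given in the sources used here.

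Counts of all 12 libraries (22830894 to 55056032 reads) were tested with edgeR 4.0.16 in R 4.3.3: TMM, filterByExpr with a minimum count of 10, and quasi-likelihood F-tests of both directions fitted on group plus replicate number. Benjamini-Hochberg adjustment covered 17264 genes and calls were made under 0.05. The common coefficient of variation was 0.0634. Intervals are 95%. Within-number differences use log2 CPM with a prior count of 2.

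The replicate number was kept as a block because, over 10549 genes averaging 200 counts or more, deviations of same-numbered libraries correlated in all 12 pairs (r 0.214 to 0.726, threshold 0.1), against a median of -0.224 and a highest value of 0.560 for 36 other pairs. Because deviations were taken from the mean of each group, positive same-number values push the other pairs to be negative. Their median is therefore not an independent contrast. None of 18 replicate pairs were identical (chi-squared per gene 3.00 to 29.0). Alternatives were no block, only the 2 groups compared, RLE, upper-quartile and total-count scaling, no filter, a minimum count of 50, DESeq2 1.42.0, limma 3.58.1 on the authors' log2 table, and 16 refits without 1 replicate number or library. The limma fit used no block on values already corrected for batch. Its p-values do not count that correction and may be too small. The edgeR fitting was tested on simulated data.

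The members and the gene lists were chosen with earlier results of these data known. In each role the member with the smallest adjusted p against ASO-Ctr and the one with the largest change against sO-L1 are given by library, with CDC6, CDT1, GMNN, PCNA and, chosen after its values were seen, MCM10. From other lists, the 2 called genes per direction with the smallest adjusted p are named, all where 5 or fewer, with CDC7, DBF4, CCNE1, CCNE2, E2F1, RRM2, MKI67 and CDKN1A. Other marker lists summed, over the libraries, to 1.44 to 4.14 CPM (trophectoderm), 0.716 to 1.65 (amnion), 0.0630 to 0.493 (primitive endoderm), 12.6 to 30.1 (mesoderm) and 1.60 to 4.61 CPM (neuroectoderm). By group, mesoderm summed to 12.6 to 17.1 CPM in ASO-Ctr, 13.8 to 18.5 in sO-L1 and 17.7 to 30.1 in ASO-L1. Neuroectoderm summed to 1.74 to 2.90, 1.60 to 2.68 and 2.85 to 4.61 CPM in the same order. In ASO-L1, 1 of 1 mesoderm, 1 of 2 trophectoderm and 1 of 2 neuroectoderm genes tested rose against each control, where 21.2% and 21.1% of all tested genes rose against ASO-Ctr and sO-L1. Of the amnion genes, 0 of 2 tested were called.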

Additional observations from a re-analysis of the deposited data

Results flagged for a closer look

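In 15 of 231 sets of 4 libraries (77 genes in 3 groups), 1 library stood apart from the other 3 by a gap above the 95% critical value of Dixon's test. Chance alone gives about 1 set in 20. Of the 15, 10 were replicate 1 of a group (4 in ASO-L1, 3 in each control), and the cause was not tested.

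Among the replication genes, POLA1 in ASO-Ctr replicate 1 was low at 181 CPM against 205 to 208 CPM in the other libraries of its group. PRIM1 in ASO-L1 replicate 1 was low at 53.3 CPM against 61.3 to 62.7 CPM. RPA2 in sO-L1 replicate 2 was low at 81.2 CPM against 89.9 to 91.0 CPM. RPA3 had 1 low library in each group, at 39.6 CPM in ASO-Ctr replicate 2, 39.6 CPM in sO-L1 replicate 2 and 38.5 CPM in ASO-L1 replicate 1, with all other libraries between 43.4 and 45.1 CPM.

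Among the other named genes, MTBP was high in sO-L1 replicate 3 (23.7 CPM), RNASEH2C in sO-L1 replicate 1 (18.0 CPM), RRM2B in sO-L1 replicate 1 (78.1 CPM), CDKN1C in ASO-L1 replicate 1 (16.4 CPM), CENPE in ASO-Ctr replicate 2 (120.3 CPM) and CENPA in ASO-L1 replicate 1 (35.1 CPM). RB1 was low in ASO-Ctr replicate 1 (34.0 CPM against 50.4 to 50.9 CPM). CDKN1A was high in replicate 1 of both controls, at 10.6 CPM in ASO-Ctr and 11.3 CPM in sO-L1, against 4.15 to 5.30 CPM in the other 6 control libraries.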

How the results depend on the processing

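Of 3075 values of the 41 members under the alternatives, 2820 kept their sign and their side of the threshold, 125 lost a call, 15 gained one and 115 changed sign without being called in either fit. Of 2700 values of other named genes these were 2468, 120, 18 and 94. A called value changed sign in 0 of these fits. In ASO-L1 against ASO-Ctr the 15 members lower became 10 to 15 and the 3 higher became 2 to 3 when 1 library or replicate number was left out, and no replicate block gave 11 and 2. In ASO-L1 against sO-L1 the 14 lower became 9 with no replicate block and 9 to 14 when a library or number was left out (9 without sO-L1 replicate 1). The 4 higher became 1 with no replicate block, 2 with only the 2 groups compared and 1 to 5 when a library or number was left out (1 without number 3, 2 without ASO-L1 replicate 2 or 3). In sO-L1 against ASO-Ctr 0 members were called in every fit, while the 50 genes called of all tested became 17 with no replicate block, 640 with only the 2 groups compared, 141 with no low count filter, 87 with DESeq2, 137 with limma and 10 to 410 when a library or number was left out (10 without number 2 or 3, 21 without any 1 of ASO-Ctr or sO-L1 replicates 2 and 3, 29 and 25 without ASO-Ctr and sO-L1 replicate 4, 31 without number 4, 241 without number 1, 410 without ASO-L1 replicate 1). The causes were not tested. The share of promoters with an E2F-type word was 48.6% in the full 300-base window, where 5.11% of all promoters held one. With only the 2 groups compared, ORC6, MCM2 and RPA2 lost their calls against ASO-Ctr, and ORC5, ORC6, GMNN, MCM4 and RPA1 theirs against sO-L1. Each member was detected in every library, and limits from depth beyond detection were not measured.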
